A study of Homo sapiens with 6 samples.

Results

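The ZFP36 and BTG/TOB genes encode proteins that bring messenger RNAs to the deadenylation machinery. All 8 members, ZFP36, ZFP36L1, ZFP36L2, BTG1, BTG2, BTG3, TOB1 and TOB2, were found by gene name among the 58735 genes of the deposited table. They were chosen by family, with the levels and fold changes of this same comparison already known, so their differences are given as a description with standard errors and no p-value. RNA came from Panc-1 cells, an epithelial line from human pancreatic cancer with the genotype label WT, after 72 h of co-culture. In 3 libraries the partner was CAF (cancer-associated fibroblasts) overexpressing PAI-1, the plasminogen activator inhibitor, and in 3 it was CAF, in columns headed NC, a term the labels do not explain. These are called the PAI-1 libraries and the CAF libraries. The comparison addresses what Panc-1 expresses when its CAF make more PAI-1. The labels name no donor or line of the CAF, no means of overexpression and no way of keeping the cell types apart.

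ZFP36 proteins, of which ZFP36 itself is tristetraprolin, bind AU-rich elements in the 3′ untranslated region (UTR) of short-lived mRNAs through CCCH zinc fingers and recruit the CCR4-NOT deadenylase. BTG and TOB proteins bind the catalytic CCR4-NOT subunits CNOT7 and CNOT8 through a shared N-terminal domain, and TOB1 and TOB2 also bind the cytoplasmic poly(A)-binding protein. Both families include growth-restraining genes that are induced quickly by signals, and many mRNAs that ZFP36 proteins bind encode cytokines and growth regulators.

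The pattern was one of opposite extremes. ZFP36 was 2.53-fold higher with CAF overexpressing PAI-1, while TOB1 stood at 0.386 of its level with CAF. ZFP36L1, BTG3 and TOB2 were higher by smaller amounts, ZFP36L2 and BTG1 differed by less than their standard errors, and BTG2 was close to the detection limit. In bulk RNA, fewer cells of a type and less RNA per cell cannot be told apart.

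The AU-rich elements that ZFP36 proteins bind are also found in the mRNAs of the members, and they are shown here because the longer form was found in the ZFP36 family only among the 8 genes. The 7 bases TATTTAT and the 9 bases TTATTTATT, which include the 7, were searched on the sense strand of 1 annotated 3′ UTR a gene in GENCODE release 29. Capitals mark the longest of these motifs, each site is given 5′ to 3′ as DNA in 28 bases, and TOB1 had no TATTTAT.
ZFP36: atgacgactTTATTTATTctaatatgat
ZFP36L1: actgttggaTTATTTATTttagaaattc
ZFP36L2: ctatttaacTTATTTATTatcttgtgaa
BTG1: atagatttctTATTTATctgaaggtata
BTG2: aatgaagagcTATTTATatatattattt
BTG3 site 1: tggacttgagTATTTATatattgtgcat
BTG3 site 2: gtatgtaagtTATTTATatacaaggaaa
TOB2: cgcaagtcctTATTTATatgtgaggctg

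All 3 ZFP36 family UTRs held exactly 1 TTATTTATT, at base 507 of 713 in ZFP36, base 1438 of 1871 in ZFP36L1 and base 853 of 1917 in ZFP36L2. Each also held 3 TATTTAT in all, overlaps and the 9-base site included. None of the 5 BTG/TOB UTRs held the longer motif. TATTTAT occurred 2 times in BTG3 and 1 time each in BTG1, BTG2 and TOB2. Among 12433 tested genes with such a UTR, 8.61% held TTATTTATT and 32.8% held TATTTAT. Among genes with a UTR length within 20% of that of ZFP36, 5.2% held TTATTTATT, and for the lengths of ZFP36L1 and ZFP36L2 the shares were 8.73% and 8.66%. The TTATTTATT shares for the lengths of BTG1, BTG2, BTG3, TOB1 and TOB2 were 17.7%, 10.8%, 2.39%, 5.29% and 14.7%. Most genes with UTRs of those lengths thus lack it as well. For a UTR as long as that of TOB1, 757 bases, 22.5% of genes held TATTTAT. The shares for the lengths of BTG1, BTG2, BTG3 and TOB2 were 61.9%, 45.8%, 14% and 53.9%, so TATTTAT is common in UTRs as long as those of BTG1, BTG2 and TOB2. A motif match describes letters only, and binding was not measured.

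ZFP36 (ENSG00000128016, chromosome 19, 39406813 to 39409412, plus strand) was the most abundant of the 8 and the highest relative to CAF. Coordinates come from GENCODE release 29 (GRCh38), whose identifiers the table carries, although the submitters' processing notes name hg19. ZFP36 had 9657, 8541 and 10296 counts in the PAI-1 libraries, against 4378, 4083 and 3384 in the CAF libraries. In CPM, counts scaled by TMM to a common library total, this was 654, 620.4 and 666 CPM, against 266, 257 and 243 CPM. The groups lay far apart, and within each group the libraries differed little, with a coefficient of variation of 3.63% in the PAI-1 libraries and 4.41% in the CAF libraries. The means were 647 ± 23.4 and 255 ± 11.3 CPM (SD, n = 3 each), a log2 fold change of 1.34 (SE 0.055).

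ZFP36L1 (ENSG00000185650, chromosome 14, 68787660 to 68796253, minus strand), a paralog with the same zinc finger type, had 54.2, 42.2 and 55.4 CPM in the PAI-1 libraries, against 39.9, 40.9 and 41.4 CPM in the CAF libraries. PAI-1 replicate 2 lay just above the CAF libraries and the other PAI-1 libraries well above them. The log2 fold change was 0.32 (SE 0.084). It was 0.26 without PAI-1 replicate 1, 0.42 without PAI-1 replicate 2 and 0.25 without PAI-1 replicate 3, where its call was lost. ZFP36L2 (ENSG00000152518, chromosome 2, 43222402 to 43226609, minus strand), the remaining paralog, had 90.9, 97.3 and 84.9 CPM in the PAI-1 libraries, against 86.1, 90.7 and 86.0 CPM in the CAF libraries. Its groups overlapped, with a log2 fold change of 0.06 (SE 0.064).

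TOB1 (ENSG00000141232, chromosome 17, 50862223 to 50867978, minus strand), an antiproliferative partner of the deadenylase, was the only one of the 8 below the CAF libraries in every PAI-1 library. It had 315, 307 and 345 counts in the PAI-1 libraries, against 961, 910 and 768 in the CAF libraries. In TMM-scaled CPM this was 21.3, 22.3 and 22.3, against 58.3, 57.3 and 55.2. The replicates were tight, with coefficients of variation of 2.57% and 2.77%. Means were 22.0 ± 0.56 and 57.0 ± 1.58 CPM (SD, n = 3 each), a log2 fold change of -1.37 (SE 0.078), or 2.59-fold lower. TOB2 (ENSG00000183864, chromosome 22, 41433492 to 41447023, minus strand), the close relative of TOB1, had 74.4, 63.9 and 63.1 CPM in the PAI-1 libraries, against 63.4, 55.2 and 52.9 CPM in the CAF libraries. Its groups overlapped at the edge, since PAI-1 replicate 3 was below CAF replicate 1, and the log2 fold change was 0.23 (SE 0.076). It was 0.15 without PAI-1 replicate 1, 0.21 without CAF replicate 2, 0.18 without CAF replicate 3 and 0.16 with library size alone, and its call was lost in each of these.

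BTG1 (ENSG00000133639, chromosome 12, 92140278 to 92145897, minus strand), a short family member linked to quiescence, had 56.1, 58.0 and 53.3 CPM in the PAI-1 libraries, against 54.1, 59.8 and 56.2 CPM in the CAF libraries, and a log2 fold change of -0.02 (SE 0.070). The groups covered the same range. BTG3 (ENSG00000154640, chromosome 21, 17593653 to 17612947, minus strand) had 12.3, 16.5 and 13.6 CPM in the PAI-1 libraries, against 10.4, 11.3 and 10.4 CPM in the CAF libraries. The groups did not overlap, and PAI-1 replicate 2 was the highest. The log2 fold change was 0.40 (SE 0.13), or 0.27 without PAI-1 replicate 2 and 0.38 without CAF replicate 1, where its call was lost.

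BTG2 (ENSG00000159388, chromosome 1, 203305491 to 203309602, plus strand), a target of p53 and of growth factor signals in other cells, was barely detected. It had 12, 26 and 18 counts in the PAI-1 libraries, against 3, 12 and 12 in the CAF libraries. In CPM this was 0.812, 1.89 and 1.16, against 0.182, 0.756 and 0.863, where 3 counts correspond to between 0.187 and 0.22 CPM of the library total. The groups overlapped, and the log2 fold change of 1.12 had an SE of 0.47. It was 0.75 without PAI-1 replicate 2, 0.66 without CAF replicate 1 and 1.46 without CAF replicate 3. BTG4, the remaining human gene of that family, had 0, 1 and 0 counts in the PAI-1 libraries, against 1, 3 and 0 in the CAF libraries, too few for a fold change.

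**Figure D1:**
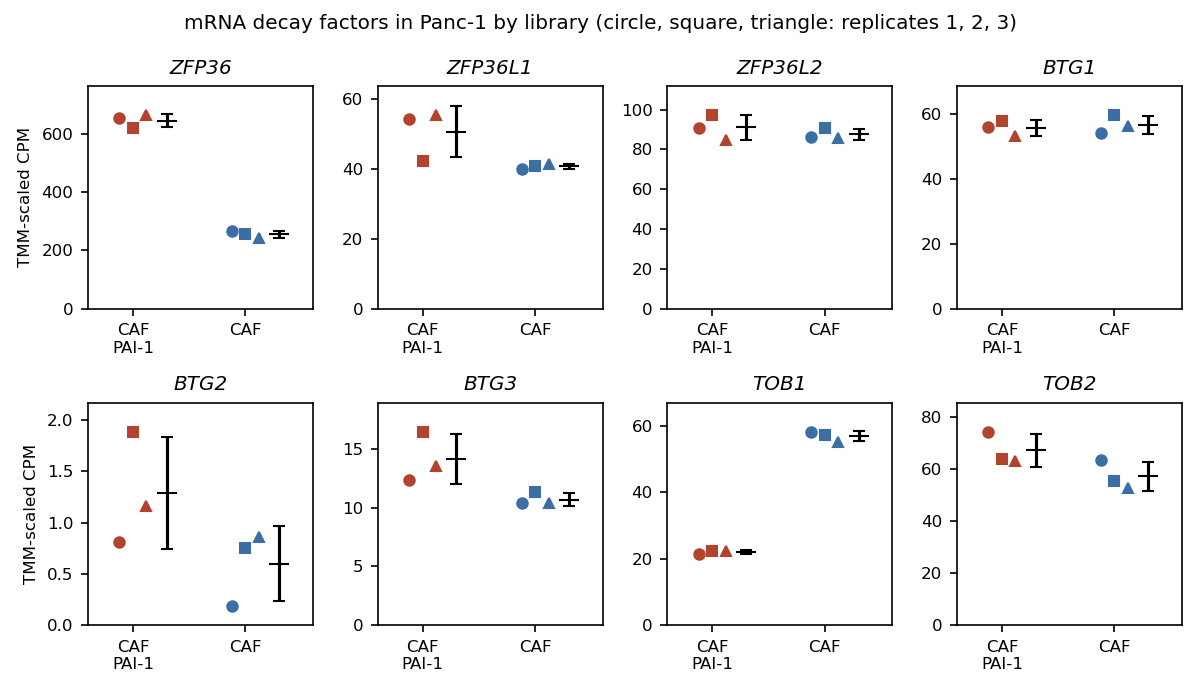
TMM-scaled CPM of the 8 genes in each library, with PAI-1 libraries in red on the left and CAF libraries in blue on the right of each panel, axes from 0, and the mean with SD beside the 3 points. ZFP36 stood at 620.4 to 666 CPM in the PAI-1 libraries and 243 to 266 CPM in the CAF libraries, and TOB1 at 21.3 to 22.3 and 55.2 to 58.3 CPM.

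Across the whole table, the edgeR quasi-likelihood test with a Benjamini-Hochberg adjusted p under 0.05 called 32.2% of 14960 genes, 17.2% higher and 15.0% lower, and in 43.4% of genes the libraries of the groups did not overlap. With library size alone in place of TMM, 36.6% of the called genes were higher, against 53.5% with TMM. All 8 members passed the filter on low counts. Of these, 4 were called higher (ZFP36, ZFP36L1, BTG3 and TOB2) and 1 lower (TOB1), and the groups did not overlap for 3 higher and 1 lower. Because the members were chosen on this contrast, nothing is read from these counts. The median log2 fold change of the members was 0.27, beside -0.0015 for all tested genes. ZFP36 and TOB1 had larger absolute log2 fold changes than 98.8% and 98.9% of the tested genes.

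**Figure D2:**
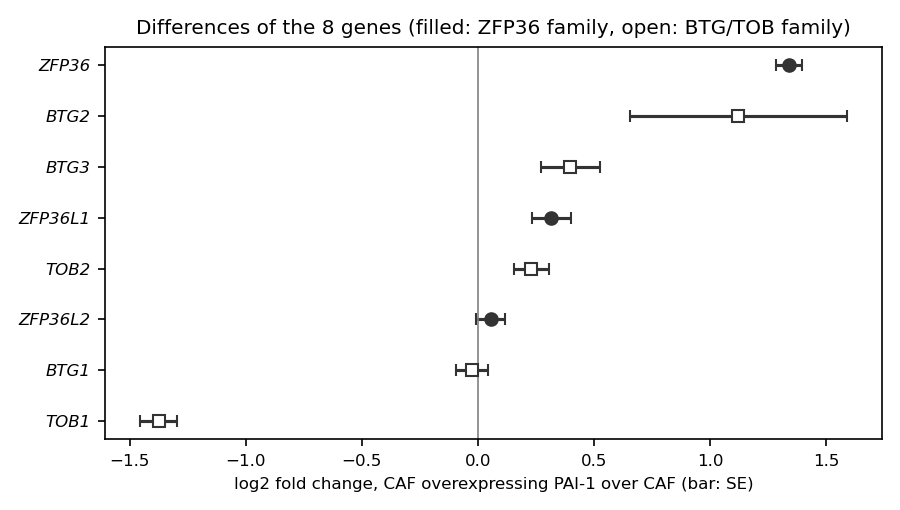
Log2 fold change of each gene, CAF overexpressing PAI-1 over CAF, on the horizontal axis with bars of 1 SE, filled circles for the ZFP36 family and open squares for the BTG/TOB family. ZFP36 lies at 1.34 and TOB1 at -1.37, with BTG1 and ZFP36L2 at 0 within their bars.

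Ratios of counts within a library do not depend on the scaling. ZFP36 had 7.19, 6.37 and 7.84 counts for each count of ZFP36L2 in the PAI-1 libraries, against 3.09, 2.84 and 2.83 in the CAF libraries. TOB1 had 0.287, 0.349 and 0.353 counts for each count of TOB2 in the PAI-1 libraries, against 0.921, 1.04 and 1.04 in the CAF libraries. These paralog pairs therefore differed unequally between the groups whatever the scaling. The ratio of ZFP36 to TOB1 was 30.7, 27.8 and 29.8 in the PAI-1 libraries, against 4.56, 4.49 and 4.41 in the CAF libraries, 6.57 times as high on average.

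Levels of different genes were compared per length, as TPM, in which counts are divided by the total exon length of a gene and scaled to the same sum in each library. In the PAI-1 libraries the order was ZFP36 at 1155 ± 25.6 TPM, ZFP36L2 at 88.5 ± 7.29, TOB2 at 52.8 ± 4.47, BTG1 at 41.3 ± 2.30, ZFP36L1 at 35.2 ± 4.56, TOB1 at 31.3 ± 1.2, BTG3 at 22.0 ± 3.72 and BTG2 at 1.69 ± 0.75 TPM (SD, n = 3). Of the neighbours in this order, ZFP36L1 and TOB1 had overlapping libraries. In the CAF libraries the order was ZFP36 at 469 ± 26.6 TPM, ZFP36L2 at 87.5 ± 1.96, TOB1 at 83.4 ± 3.35, TOB2 at 46.3 ± 5.22, BTG1 at 43.1 ± 1.53, ZFP36L1 at 29.1 ± 0.31, BTG3 at 17.1 ± 0.73 and BTG2 at 0.799 ± 0.48 TPM (SD, n = 3). Here ZFP36L2 and TOB1 overlapped, as did TOB2 and BTG1. TOB1 held place 6 of 8 with CAF overexpressing PAI-1 and place 3 with CAF.

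The summed ZFP36 family level was 1278 ± 22.6 TPM in the PAI-1 libraries and 586 ± 27.4 TPM in the CAF libraries (SD, n = 3 each). ZFP36 made up 90.3 ± 0.41% of that sum in the PAI-1 libraries and 80.1 ± 0.81% in the CAF libraries. The summed BTG/TOB level was 149 ± 6.77 TPM in the PAI-1 libraries and 191 ± 7.65 TPM in the CAF libraries. TOB1 gave 21.0 ± 1.02% of it in the PAI-1 libraries and 43.7 ± 0.26% in the CAF libraries, and TOB2 gave 35.4 ± 3.08% and 24.2 ± 1.83%. With CAF overexpressing PAI-1, TOB2 was the largest component of its family in each library, and with CAF it was TOB1.

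**Figure D3:**
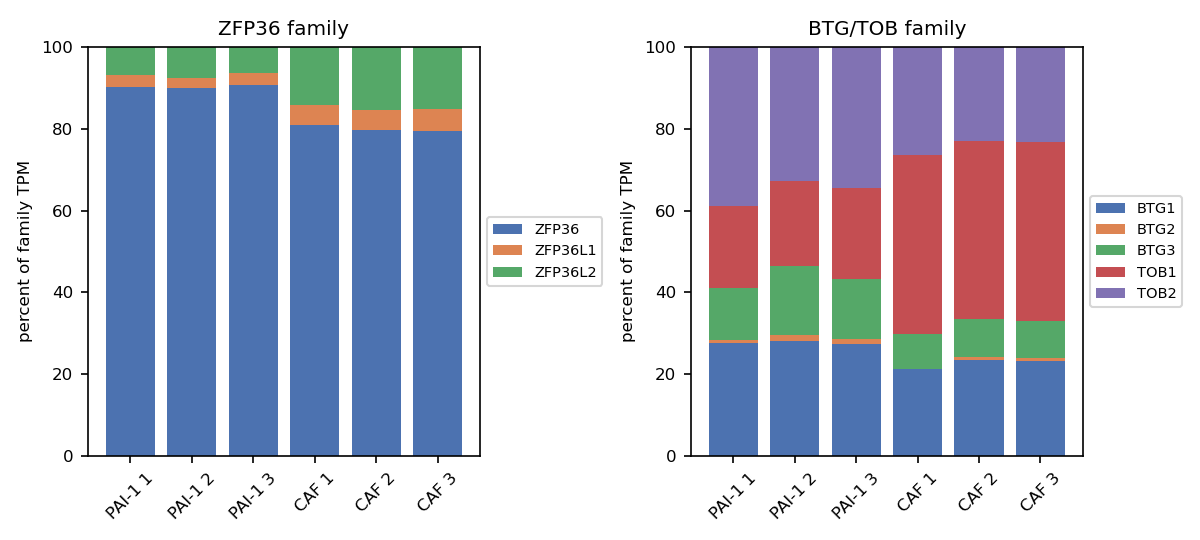
Share of each gene in the summed TPM of its family, in percent, 1 stacked bar a library with PAI-1 libraries left of CAF libraries. The ZFP36 share is 90.3% on average in the PAI-1 libraries and 80.1% in the CAF libraries, and the TOB1 share 21.0% and 43.7%.

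Genes with a profile most like ZFP36 and TOB1 were named by the root mean square distance of log2 CPM, centred on each gene, over 6 libraries and 10952 genes of at least 5 CPM. Nearest to ZFP36 were MAP3K14, a kinase of noncanonical NF-kappaB signalling, at a distance of 0.051, ZNF697 at 0.057 and ZYX, the focal adhesion protein zyxin, at 0.058. MAP3K14 had 136 ± 5.54 CPM in the PAI-1 libraries and 51.9 ± 0.98 CPM in the CAF libraries (SD, n = 3 each). Nearest to TOB1 were BRD8, a bromodomain protein of a histone acetyltransferase complex, at 0.079, ASPM, a spindle pole protein, at 0.082 and AL139393.2 at 0.083. BRD8 had 49.4 ± 4.05 CPM in the PAI-1 libraries and 126 ± 7.46 CPM in the CAF libraries (SD, n = 3 each). The log2 fold changes were 1.39, 1.42 and 1.31 for the genes nearest to ZFP36, and -1.35, -1.26 and -1.32 for those nearest to TOB1. Since the distance was taken over the same 6 libraries, fold changes like those of ZFP36 and TOB1 follow from the choice and are no separate result.

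Promoters, from 250 bases before to 50 after an annotated start, were taken from RefSeq on GRCh38.p14, which held 9 for 7 of the 8 symbols. Those of ZFP36 and TOB1 are shown 5′ to 3′ in the direction of the gene because these genes had the largest differences in each direction with ample counts. Capitals mark the GC box GGGCGG on either strand and the CCAAT box, the only searched motifs found in them.
ZFP36, chr19:39406597-39406896, plus strand: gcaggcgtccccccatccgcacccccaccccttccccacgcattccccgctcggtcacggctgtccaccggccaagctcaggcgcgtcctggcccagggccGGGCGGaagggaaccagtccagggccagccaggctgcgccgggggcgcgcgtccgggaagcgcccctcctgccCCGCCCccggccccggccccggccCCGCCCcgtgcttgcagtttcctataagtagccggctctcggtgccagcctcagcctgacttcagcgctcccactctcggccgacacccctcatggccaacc
TOB1 upstream start, chr17:50867929-50868228, minus strand: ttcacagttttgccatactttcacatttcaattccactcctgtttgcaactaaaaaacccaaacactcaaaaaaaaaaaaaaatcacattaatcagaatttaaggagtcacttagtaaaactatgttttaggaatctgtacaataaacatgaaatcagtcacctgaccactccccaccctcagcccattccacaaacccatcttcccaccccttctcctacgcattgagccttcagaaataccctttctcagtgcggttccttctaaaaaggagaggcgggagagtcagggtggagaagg
TOB1 downstream start, chr17:50866305-50866604, minus strand: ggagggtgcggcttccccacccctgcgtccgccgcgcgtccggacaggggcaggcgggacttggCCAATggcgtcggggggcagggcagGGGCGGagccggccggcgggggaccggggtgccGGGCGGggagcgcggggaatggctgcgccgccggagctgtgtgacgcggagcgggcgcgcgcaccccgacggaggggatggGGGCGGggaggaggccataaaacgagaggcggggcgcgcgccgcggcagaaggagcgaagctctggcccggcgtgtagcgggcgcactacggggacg

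The ZFP36 promoter was 74.7% G and C and held GGGCGG 3 times, starting at -149 on the plus strand and at -76 and -52 on the minus strand, counted from the first transcribed base at 0. The TOB1 starts differed. The upstream one was 41.3% G and C with no match, and the downstream one was 78.7% G and C with GGGCGG at -161, -128 and -47 and CCAAT at -186. Searched on both strands were the CArG box of serum response factor, GCGGGGGCG and GCGTGGGCG (EGR factors), TGACTCA (AP-1), TGACGTCA (CREB), GTAAACA (forkhead factors), GGGCGG and CCAAT. No member promoter held a CArG box, TGACTCA or GCGTGGGCG, which occur in 1.29%, 4.95% and 0.795% of all 35116 promoters of that length. BTG2 held GCGGGGGCG at -151, overlapping a GGGCGG at -147, beside 5.07% of all promoters. ZFP36L1 held TGACGTCA at -52 of its downstream start and BTG1 held GTAAACA at -209 on the minus strand, beside 1.85% and 3.42% of all promoters. GGGCGG was in 6 of the 9 member promoters and 45% of all. These are descriptions of letters in a short window.

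Antisense genes and copies were looked at because the strand setting and the assignment of shared reads are not given in the sources used here. TOB1-AS1 lies opposite TOB1 over 1300 bases and had 1, 4 and 0 counts in the PAI-1 libraries, against 8, 6 and 7 in the CAF libraries, too few to be tested. BTG3-AS1 had 0, 4 and 1 counts in the PAI-1 libraries, against 2, 1 and 4 in the CAF libraries. BTG1 overlaps LINC01619 and AC025164.1, with 14 and 5 counts over all libraries. Reads of antisense partners cannot be told apart here. The copy TOB2P1 had 30, 23 and 42 counts in the PAI-1 libraries, against 35, 29 and 29 in the CAF libraries, a log2 fold change of 0.10 (SE 0.29, edgeR adjusted p = 0.832), so the level of TOB2 is uncertain by the reads the pair shares. The copies BTG1P1, BTG3P1 and BTG4P1 had 0 counts throughout.

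The subunits of the complex that both families recruit had log2 fold changes between -0.36 and 0.22. Of 10 CCR4-NOT subunits, 1 was called higher and 4 lower by edgeR, or 50%, beside 32.2% of all tested genes. Their median log2 fold change was -0.08, beside -0.0015 for all genes. This list and those that follow were chosen with earlier results of these data known. Their shares of called genes are therefore a description and no independent evidence. The calls numbered 3, of which 2 lower, with DESeq2 and without PAI-1 replicate 2, PAI-1 replicate 3 or CAF replicate 1, and CNOT1 and CNOT6L were the genes lost each time. CNOT8, a catalytic subunit that BTG and TOB proteins bind, fell to 38.8 ± 3.76 CPM in the PAI-1 libraries, against 49.7 ± 4.51 CPM in the CAF libraries (log2 fold change -0.36, SE 0.082, edgeR adjusted p = 9.1e-04). Its relative CNOT7 had 37.2 ± 1.45 CPM in the PAI-1 libraries and 37.9 ± 1.22 CPM in the CAF libraries (edgeR adjusted p = 0.81). CNOT6 and CNOT6L, the other type of catalytic subunit, had -0.32 each and both fell (edgeR adjusted p = 1.17e-04 and 0.036). CNOT1, the scaffold that ZFP36 proteins contact, had 203 ± 23.9 CPM in the PAI-1 libraries and 228 ± 8.58 CPM in the CAF libraries, with a log2 fold change of -0.17 (edgeR adjusted p = 0.0458) and overlapping libraries, and -0.08 without PAI-1 replicate 2. CNOT9 rose by 0.22 on the log2 scale, a call lost with library size alone, and CNOT3 had -0.04 and was not called.

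Of 9 other deadenylases and poly(A)-binding proteins, 1 was called higher and 3 lower, or 44.4%, beside 32.2% of all tested genes. The median was -0.10, and 5 were lower with library size alone. PAN2 and PAN3, the subunits of the other major deadenylase, fell by 0.44 and 0.35 on the log2 scale (edgeR adjusted p = 7.12e-04 and 0.00242). PAIP2B, an inhibitor of poly(A)-binding protein, fell to 1.78 ± 0.27 CPM in the PAI-1 libraries, against 3.35 ± 0.31 CPM in the CAF libraries. PABPC4 rose by 0.22, and PABPC1, the main cytoplasmic poly(A)-binding protein that TOB proteins bind, had 1179 ± 57.4 CPM in the PAI-1 libraries and 1128 ± 25.0 CPM in the CAF libraries (log2 fold change 0.06, edgeR adjusted p = 0.393).

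Downstream steps went both ways. Of 18 decapping and 5′ decay genes, 2 were called higher and 2 lower, or 22.2%, beside 32.2% of all tested genes. The median was -0.07. Calls numbered 8 with library size alone, of which 6 lower, 7 without PAI-1 replicate 2, of which 5 lower, and 2 without CAF replicate 2. XRN1, the 5′ exonuclease, and DCP2, the decapping enzyme, fell by 0.31 and 0.21 on the log2 scale (edgeR adjusted p = 0.00101 and 0.0161), while LSM6 and EDC3 rose by 0.44 and 0.26. The call of DCP2 was lost without CAF replicate 2 or CAF replicate 3, and that of LSM6 without PAI-1 replicate 3 or CAF replicate 2. DDX6 and LSM14A, the most abundant of the list, had -0.11 and -0.08 and were not called. Both were called lower with library size alone, and DDX6 also without PAI-1 replicate 2. Of 16 exosome and Ski complex genes, 4 were called higher and 1 lower, or 31.2%, close to the 32.2% of all tested genes. The median was 0.07. Lower calls numbered 2 with library size alone and 2 without PAI-1 replicate 2. EXOSC4, EXOSC2 and the nuclease DIS3 rose by 0.63, 0.39 and 0.45, and DIS3L, a cytoplasmic relative of DIS3, had -0.42 (edgeR adjusted p from 3.97e-06 to 3.39e-04). TTC37 and EXOSC10, the most abundant, had 0.03 and 0.01.

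Other RNA-binding regulators of 3′ UTR decay also went both ways. Of 18 tested, 8 were called higher and 3 lower, or 61.1%, beside 32.2% of all tested genes. The median log2 fold change was 0.02. This list too was chosen with earlier results known, so its share is no independent evidence of an excess. With library size alone, 6 were higher and 5 lower. Higher calls also numbered 6 without PAI-1 replicate 1, CAF replicate 1 or CAF replicate 3. SAMD4A, a Smaug-type repressor that recruits CCR4-NOT in flies, rose to 62.8 ± 3.13 CPM in the PAI-1 libraries, against 39.3 ± 1.55 CPM in the CAF libraries (log2 fold change 0.68, edgeR adjusted p = 3.58e-09). ZC3H12A, the endonuclease Regnase-1 that also cleaves cytokine mRNAs, rose to 56.9 ± 5.66 CPM in the PAI-1 libraries, against 38 ± 3.04 CPM in the CAF libraries (0.58, edgeR adjusted p = 6.26e-07). RBM38, a p53-induced RNA-binding protein, rose by 0.54. TIA1, which binds AU-rich elements and represses translation, fell, with a log2 fold change of -0.45 (edgeR adjusted p = 4.45e-07). SAMD4B and HNRNPD, the most abundant, had -0.05 and 0.23, of which HNRNPD, an AU-rich element binder also known as AUF1, was called higher (edgeR adjusted p = 0.00273).

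A list of 26 mRNAs reported as targets of ZFP36 proteins in various cells was set beside them, of which 24 could be tested and IL6 and IL10 had too few counts. Of these, 14 were called higher and 4 lower, or 75.0%, beside 32.2% of all tested genes. The median log2 fold change was 0.48. Higher calls numbered 12 with library size alone and without CAF replicate 1 or CAF replicate 2. They numbered 13 without PAI-1 replicate 1 or PAI-1 replicate 2. The list was drawn up with results of these data known, so its count is no independent evidence of a direction. FOS, an AP-1 subunit, rose to 15.4 ± 4.55 CPM in the PAI-1 libraries, against 2.13 ± 0.60 CPM in the CAF libraries (log2 fold change 2.86, SE 0.24, edgeR adjusted p = 1.42e-08). PLAUR, the urokinase receptor gene, LIF, a cytokine gene, and CSF2, which encodes GM-CSF, rose by 1.36, 1.30 and 1.28. CSF2 stayed near the detection limit, with 1.90 ± 1.02 CPM in the PAI-1 libraries and 0.791 ± 0.27 CPM in the CAF libraries, and its call was lost without PAI-1 replicate 1, with a log2 fold change of 0.76, and without CAF replicate 1, with 1.02. PLAU and CCND1, the most abundant, rose by 0.91 and 0.77. The classical target TNF had 2.36 ± 0.50 CPM in the PAI-1 libraries and 1.79 ± 0.29 CPM in the CAF libraries (edgeR adjusted p = 0.31). CCL20, CXCL3, PIM1 and CXCL1 fell, with log2 fold changes of -0.73, -0.48, -0.36 and -0.21. Lower calls numbered 2 without CAF replicate 1 or CAF replicate 3, where CXCL3 and CXCL1 were lost. CXCL3 was also lost without PAI-1 replicate 1 and CXCL1 without PAI-1 replicate 3. The 3′ UTR search in GENCODE covered 23 of the 24 tested targets, without MYC, for which no UTR was searched. Of the 23, 17 held TTATTTATT and 21 held TATTTAT, or 73.9% and 91.3%. The shares among all 12433 genes searched were 8.61% and 32.8%. Since the list holds reported targets of proteins that bind these motifs, its higher shares follow from the choice and are no separate result.

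Kinases and binding proteins that control ZFP36 proteins were the last list. In this route MAP2K3 and MAP2K6 activate p38, whose partner kinase MK2 phosphorylates ZFP36 proteins, and 14-3-3 proteins then bind them. Of 16 genes, 5 were called higher and 1 lower, or 37.5%, beside 32.2% of all tested genes. The median was 0.14, and 2 were lower with library size alone. MAP2K3 rose to 222 ± 14.9 CPM in the PAI-1 libraries, against 88.2 ± 5.15 CPM in the CAF libraries (log2 fold change 1.33, SE 0.061, edgeR adjusted p = 5.2e-18). MAP2K6 fell to 1.91 ± 0.34 CPM in the PAI-1 libraries, against 4.01 ± 1.22 CPM in the CAF libraries (-1.06, SE 0.26, edgeR adjusted p = 0.00169). MAPKAPK2, which encodes MK2, had 86.4 ± 3.18 CPM in the PAI-1 libraries and 78.0 ± 3.58 CPM in the CAF libraries and was not called (edgeR adjusted p = 0.0721). It was called higher without PAI-1 replicate 2, with a log2 fold change of 0.16. Higher calls of the list numbered 7 in that setting, and 4 with library size alone or without CAF replicate 1. Of the 14-3-3 genes, SFN and YWHAG rose by 0.72 and 0.53 and YWHAZ, the most abundant, by 0.17, a call lost with library size alone and without CAF replicate 1. YWHAQ had -0.07 and was not called.

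**Figure D4:**
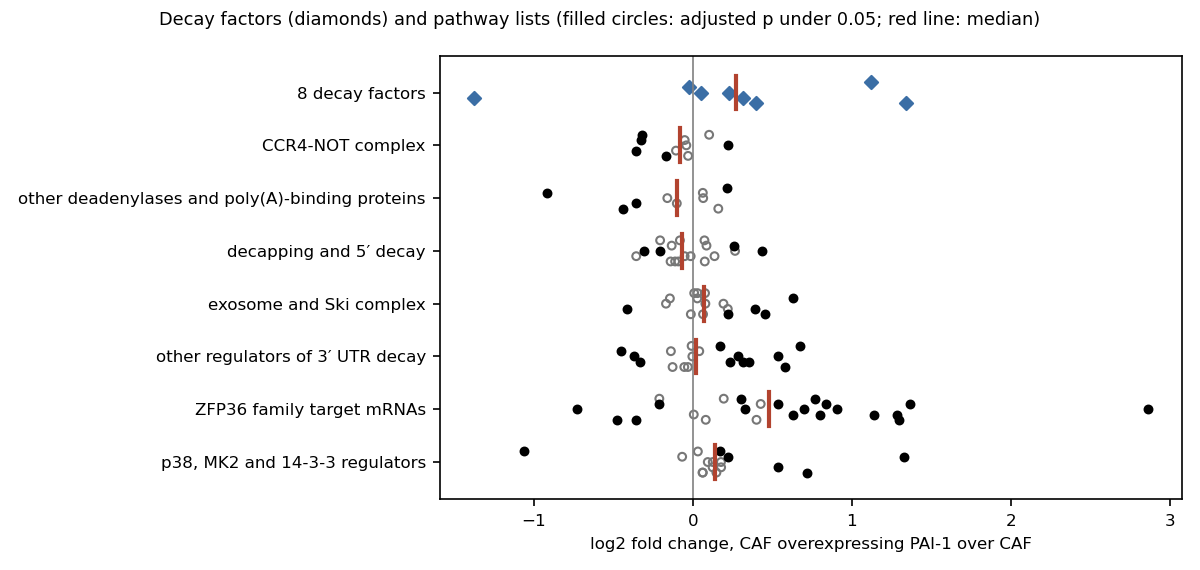
Log2 fold change, CAF overexpressing PAI-1 over CAF, of the 8 decay factors (blue diamonds) and of the tested genes of each pathway list (circles, filled where the edgeR adjusted p was under 0.05), with a red line at each median. The medians run from -0.10 for other deadenylases to 0.48 for the ZFP36 family targets.

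The 6 libraries held 13628508 to 16006880 counts. PAI-1 replicate 2 stood apart, with a chi-square per degree of freedom of 9.51 and 6.63 against the other PAI-1 libraries, where pairs otherwise gave 2.58 to 3.72. Without it the log2 fold changes of ZFP36 and TOB1 were 1.36 and -1.39. Mitochondrial genes took 5.12%, 3.78% and 4.76% of counts in the PAI-1 libraries, against 5.53%, 5.81% and 5.92% in the CAF libraries. The groups did not overlap, and the part of this difference in those of the members was not tested. The 6 epithelial markers summed to 2046 to 2308 CPM in the PAI-1 libraries and 1781 to 1891 CPM in the CAF libraries, and their part in the members' differences was not tested. Of these markers, 4 keratins were called higher. The KRT8 call was lost with library size alone and without PAI-1 replicate 3, CAF replicate 1 or CAF replicate 3. KRT8 had 1140 ± 75.3 CPM in the PAI-1 libraries and 1015 ± 31.6 CPM in the CAF libraries, while EPCAM had 8.10 ± 1.36 and 7.06 ± 0.46 CPM and CDH1 1.01 ± 0.33 and 1.67 ± 0.21 CPM. The 9 fibroblast markers summed to 5.75 to 7.76 CPM in the PAI-1 libraries and 4.92 to 6.74 CPM in the CAF libraries. Most of each sum was COL3A1, a collagen gene, with 80, 96 and 107 counts in the PAI-1 libraries, against 70, 91 and 79 in the CAF libraries. Its means were 6.44 ± 0.88 and 5.22 ± 0.84 CPM, its groups overlapped and it was not called. The other 8 stayed below 1 CPM throughout. PDGFRA, FAP and POSTN were at 0 in all PAI-1 libraries and DCN in all CAF libraries. Leukocyte markers summed to 5.69 to 6.77 CPM in the PAI-1 libraries and 5.47 to 6.92 CPM in the CAF libraries, nearly all of it CD14, with CD3E at 0. Endothelial markers summed to 1.49 to 2.64 CPM in the PAI-1 libraries and 0.863 to 1.45 CPM in the CAF libraries, mostly KDR.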

How the data were processed

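The authors deposited 1 table of whole-number counts per gene, not normalized, with 1 column for each of 6 libraries prepared with oligo-dT beads, per the labels. BWA, Bowtie2, RSEM and the build hg19 are listed, without versions, in the submitters' processing notes. The counting step and its strand setting are not given in the sources used here. All 58735 identifiers are those of GENCODE release 29, and 27 names that differed from it were taken from it by identifier. The extraction text of the labels speaks of another line and treatment, Cal27 cells with Stattic or DMSO, while all other labels name Panc-1 with CAF. Which is right for the extraction cannot be settled from these files. The labels call the replicates biological without saying that cultures were separate, and a p-value then reflects only how far these libraries vary, which may be technical.

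The test was edgeR's quasi-likelihood test (version 4.0.16, R 4.3.3, filterByExpr with minimum count 10 and minimum total 15, TMM, estimateDisp, robust glmQLFit, glmQLFTest), as CAF overexpressing PAI-1 minus CAF, with Benjamini-Hochberg adjustment over 14960 genes. "Rose" and "fell" mean an adjusted p under 0.05. Each SE was obtained from the fold change and the square root of its F statistic. CPM are TMM-scaled, and distances used log2 CPM with a prior count of 2. 3′ UTRs come from the transcript of highest APPRIS level, then the longest. The test was also run on counts simulated from its own fitted model. That simulation had far fewer changed genes than were called here, as many raised as lowered, so it cannot judge the choice of scaling.

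The members and lists were chosen with earlier results of these data known. The genes named are the members, their relatives, and in each list the 4 called genes of largest absolute log2 fold change and the 2 most abundant. For ZFP36 and TOB1, the 3 nearest genes are named too. CNOT7, TNF, the 4 targets called lower and MAPKAPK2 were named after their values were seen. Of 14 alternatives, 6 leave out a library, and the others are DESeq2 1.42.0, limma-voom (limma 3.58.1), RLE or no scaling factors, a looser and a stricter filter, plain estimation and replicate numbers as blocks.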

Additional observations from a re-analysis of the deposited data

How the results depend on the processing

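The directions of ZFP36, ZFP36L1, BTG2, BTG3, TOB1 and TOB2 held under each of the 14 alternatives that gave a value. ZFP36 ranged from 1.27 to 1.37 on the log2 scale and TOB1 from -1.44 to -1.36. With library size alone, which shifts the median of all genes by -0.067, ZFP36 was 1.27 and TOB1 -1.44. For TOB1 the move exceeded 0.055, the SD of a log2 difference between 1 PAI-1 and 1 CAF library (for ZFP36, 0.083). ZFP36L1 ranged from 0.25 to 0.42, BTG3 from 0.27 to 0.49, TOB2 from 0.15 to 0.31 and BTG2 from 0.66 to 1.46, without a value for BTG2 at a mean of at least 1 CPM. BTG1 and ZFP36L2, never called, crossed 0, with ranges of -0.091 to 0.016 and -0.011 to 0.10. Called genes numbered 3942 to 5069 over the alternatives. ZFP36 and TOB1 were called in each. ZFP36L1 was not called without PAI-1 replicate 3, BTG3 without PAI-1 replicate 2 or CAF replicate 1, and TOB2 with library size alone or without PAI-1 replicate 1, CAF replicate 2 or CAF replicate 3. BTG2 was called with the replicate block, without PAI-1 replicate 1 and without CAF replicate 3. The alternatives reuse the same 6 libraries, on whose contrast the members were chosen. These calls therefore describe only the dependence on processing and are no test of the members.

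CCR4-NOT calls numbered 3 with DESeq2 and 3 to 5 with a library left out. Decapping calls numbered 8 with library size alone and 2 to 7 with a library left out. The cause was not tested. Deviations of libraries with the same number were barely correlated, at 0.0023, 0.012 and 0.0063, and not every library correlated best with its own number. With so few libraries in a group, these correlations cannot decide whether the numbers pair them. With the replicate block, 5069 genes were called instead of 4810. Depth limits BTG2, BTG4 and the antisense genes.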

Other observations

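Genes were also grouped by the AU-rich motif in their 3′ UTR, without regard to the lists. Of 8359 tested genes with no TATTTAT, 19.6% were called higher and 14.3% lower by edgeR with CAF overexpressing PAI-1. Of 3003 genes with TATTTAT but no TTATTTATT, 18.6% were higher and 19.8% lower. Of 824 genes with 1 TTATTTATT, 21.1% were higher and 20.9% lower, and of 247 genes with 2 or more, 21.1% were higher and 17.4% lower. The median log2 fold changes of these groups were 0.016, -0.023, -0.0033 and -0.0090. The median 3′ UTR lengths were 719, 2203, 2721 and 3825 bases, so that the groups differ in length as well as in motif, and the part of length was not tested. Genes are not independent replicates, and no test was run on these shares.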
